A study of Mus musculus with 14 samples.

Results

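The proteins of the large (60S) ribosomal subunit were followed gene by gene in mouse lung adenocarcinomas with and without a guide against Setd2. The group held 45 genes named Rpl or Rplp, picked by symbol when earlier results of these data were known, of 52550 genes in the deposited count table, and a row was found for all 45. The study compared KPY-Ctrl tumors (n = 6) with KPY-Setd2KO tumors (n = 8). All tumors arose in KPY mice, which carry Trp53 flox/flox and Rosa26 LSL-YFP/LSL-YFP on a mixed B6J/129S4vJae background. They were started by endotracheal delivery of the lentivirus LentiCRISPRv2Cre, which expresses Cre, Cas9 and a guide RNA. No drug was given. The guide targeted β-galactosidase (BGal) in KPY-Ctrl and Setd2 in KPY-Setd2KO, so the alleles of the KPY mice, among them loss of p53 and the yellow fluorescent protein (YFP), were shared by both groups. By the study's methods each sample was a microdissected tumor sorted for live YFP-positive cells, whereas the deposited labels describe RNA from cell lines and name other kits. Several tumors came from the same mouse, and the mouse is not given per tumor, so the tests below treated the tumors as independent.

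The large subunit joins amino acids at a catalytic center made of ribosomal RNA, and its proteins hold that RNA in place, line the tunnel through which the new chain leaves, and form stalks that recruit elongation factors. Most of its genes are transcribed at high levels in growing cells, and many of their mRNAs start with a C followed by pyrimidines, the terminal oligopyrimidine (TOP) tract, through which mTORC1 signaling controls their translation. Ribosomal protein genes have also left many processed pseudogenes in the mouse genome, which are intron-free copies of their mRNAs inserted elsewhere.

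The total count per tumor was between 27866266 and 51828846 in KPY-Ctrl and between 20072236 and 40604404 in KPY-Setd2KO. Setd2, the targeted gene, was measured at 41.9 to 63.6 CPM (counts scaled to a common library size) in KPY-Ctrl and at 17.9 to 47.4 CPM in KPY-Setd2KO, ranges that overlapped (log2 fold change -0.74, standard error 0.22, adjusted p = 0.175, edgeR quasi-likelihood test), and its difference passed the threshold only when a leukocyte score entered the fit (-0.83, adjusted p = 0.024). The summed level of 8 lung epithelial markers was 13214 to 60423 CPM in KPY-Ctrl and 5377 to 49022 CPM in KPY-Setd2KO. RNA of other cell types varied widely within each genotype, with 560.2 to 9191 CPM for 10 leukocyte markers in KPY-Ctrl and 287.8 to 12045 CPM in KPY-Setd2KO. The leukocyte score, the mean log2 CPM of the 10 markers, was over 8 in KPY-Ctrl replicates 1, 2 and 6 and in KPY-Setd2KO replicates 1 to 4, and under 6 in all others. The 8 macrophage markers had 2497 to 33765 CPM in KPY-Ctrl and 1757 to 49142 CPM in KPY-Setd2KO, while T and B cell markers stayed at or under 7.37 CPM in every tumor and Cd3e, Cd3g and Cd79a were each at 0 in at least 1 tumor. In bulk RNA of this kind, fewer cells of a type and less RNA per cell cannot be told apart.

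The start sites were read first, because the TOP tract is the sequence feature that large subunit genes are known to share. Of the 34 members found in the RefSeq promoter table, 7 (20.6%) had a C at the annotated start followed by at least 4 pyrimidines, compared with 813 of 27025 genes (3.01%) in the whole table. From the GENCODE coding transcripts of all 45 members, 7 (15.6%) had such a start. The 7 members are given here from 15 bases before the start to 15 bases after it (RefSeq, GRCm38.p6, gene strand), with the run of pyrimidines at the start in capitals. They differ in the length of the run, from 5 bases in Rplp2 to 13 in Rpl15.
Rpl14, chr9:120571502-120571531, plus strand: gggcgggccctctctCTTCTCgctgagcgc
Rpl15, chr14:18270972-18271001, minus strand: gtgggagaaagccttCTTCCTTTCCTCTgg
Rpl28, chr7:4792950-4792979, plus strand: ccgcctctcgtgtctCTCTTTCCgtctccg
Rpl35, chr2:39005117-39005146, minus strand: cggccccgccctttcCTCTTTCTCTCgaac
Rpl35a, chr16:33056467-33056496, plus strand: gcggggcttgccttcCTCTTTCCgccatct
Rpl38, chr11:114668565-114668594, plus strand: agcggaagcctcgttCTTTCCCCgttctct
Rplp2, chr7:141447636-141447665, plus strand: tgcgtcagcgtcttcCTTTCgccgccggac
A start without these letters says only that they are not at the annotated position. The 7 genes had log2 fold changes between genotypes from -0.21 (Rpl38) to 0.36 (Rpl35a), and none had an unadjusted p under 0.05.

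The second sequence feature bears directly on every count below. Of all other genes in the table, 676 had a transcript at least 90% identical to a member over at least 80% of its own length and were either pseudogenes (649) or genes without introns (27). They are called near copies here. For 14 members the most abundant near copy held more counts than the member itself, and over the aligned stretch 11 of these 14 copies had no base that differed from the member's mRNA, while the other 3 had 1 or 2. Single-end reads of 75 bases from such stretches match both places equally except where they cross a difference. The following windows show the differing bases (29 bases each, differing base in capitals, position counted from 1 at the 5′ end of the member's GENCODE transcript) for members described later.
Rpl23, C334T: tggtaattcgacaaCgaaagtcatatcga
Gm9794, the copy of Rpl23: tggtaattcgacaaTgaaagtcatatcga
Rpl37, G286A: cgtgagggaacaacGccgaaacccaagag
Rpl37rt, the copy of Rpl37: cgtgagggaacaacAccgaaacccaagag
Rpl39, T371C: cggatgaaaactggTaacaaaatcaggta
Rpl39-ps, the copy of Rpl39: cggatgaaaactggCaacaaaatcaggta
In each of these 3 pairs that base was the only difference, over 423 aligned bases for Rpl23, 344 for Rpl37 and 151 for Rpl39.

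Near copies took a large and very unequal part of the counts. Taking a member and its copies together, the member's own row held under 50% of the counts for 15 members, 50 to 90% for 14 and over 90% for 16. The lowest share was that of Rpl12, a protein at the base of the P stalk, whose own row averaged 22.2 CPM (1.55% of its counts) while its copy Gm10275 on chromosome 10 (29698746 to 29699380) averaged 1188 CPM. Rpl10, the protein that joins the subunit last and sits beside the catalytic center, had 66.1 CPM in its own row (5.28%) against 997.0 CPM in Rpl10-ps3, an intronless gene on chromosome 9. Rpl5, a partner of the 5S RNA, had 195.0 CPM (7.5%) against 2401 CPM in Gm15500 on chromosome 7 (114705217 to 114706235), a pseudogene without a single differing base over 1018 aligned bases. By contrast Rpl3, Rpl4, Rpl7, Rpl13a, Rpl18, Rpl22, Rpl22l1, Rpl26, Rpl32, Rplp1 and Rplp2 held over 99% of their counts in their own rows.

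**Figure D1:**
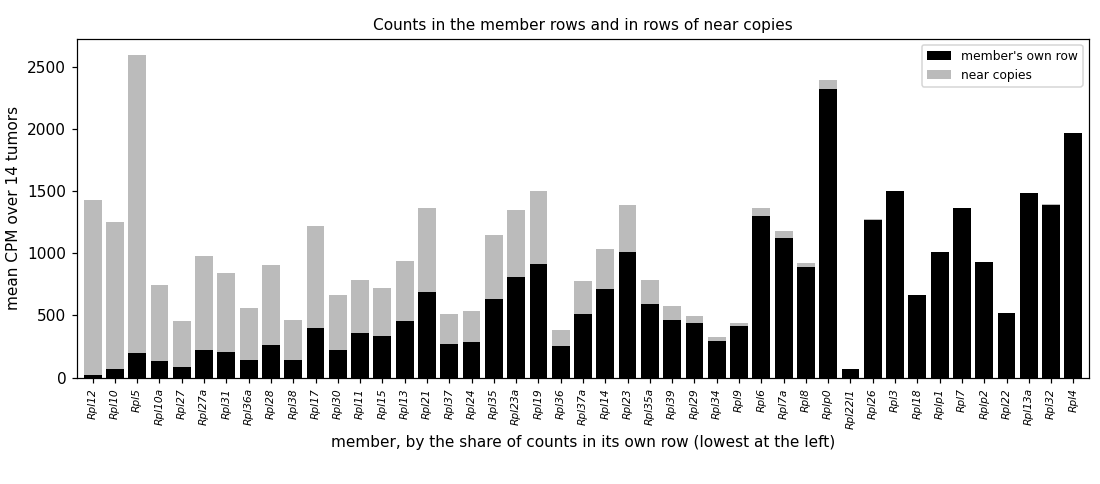
Mean CPM over the 14 tumors in each member's own row (black) and summed over its near copies (grey), with members ordered by the share in their own row. At the left Rpl12, Rpl10 and Rpl5 hold 1.55%, 5.28% and 7.5% of their counts in their own rows, and at the right the bars are black throughout.

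The order of the members by level depended on the copies as well. On the scale of CPM per kilobase of annotated coding transcript, the highest mean levels in the members' own rows were those of Rpl32 (2693), a protein of the subunit body, Rpl26 (2412), at the tunnel exit, and Rplp2 (2215), of the P stalk. The lowest were Rpl12 (17.9), Rpl10 (82.8) and Rpl5 (95.3), so that the highest and the lowest level differed 151-fold. The per-tumor ranges of the top 3 overlapped (1548 to 4521, 1555 to 3357 and 1144 to 3312 CPM per kilobase), as did those of Rpl10 (29.5 to 230.0) and Rpl5 (43.8 to 166.9), while that of Rpl12 (7.61 to 28.7) lay below both. With the copies added, the lower and upper quartiles of the 45 levels moved from 399 and 1175 to 980 and 1516 CPM per kilobase, and the span narrowed to 21.6-fold. Rpl12 then stood at 1154 and Rpl5 at 1271 CPM per kilobase, between the quartiles, and Rpl10 at 1568, above the upper one. These levels divide by the length of the member's own transcript, 1242 bases for Rpl12 and 2045 for Rpl5. Their most abundant copies, which hold most of these counts, have 635 and 1019 bases. The places of Rpl12 and Rpl5 among the levels thus depend on the length used. The lowest level with copies was that of Rpl22l1 (124.9), the low-abundance paralog of Rpl22, whose copies held under 1% of its counts.

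**Figure D2:**
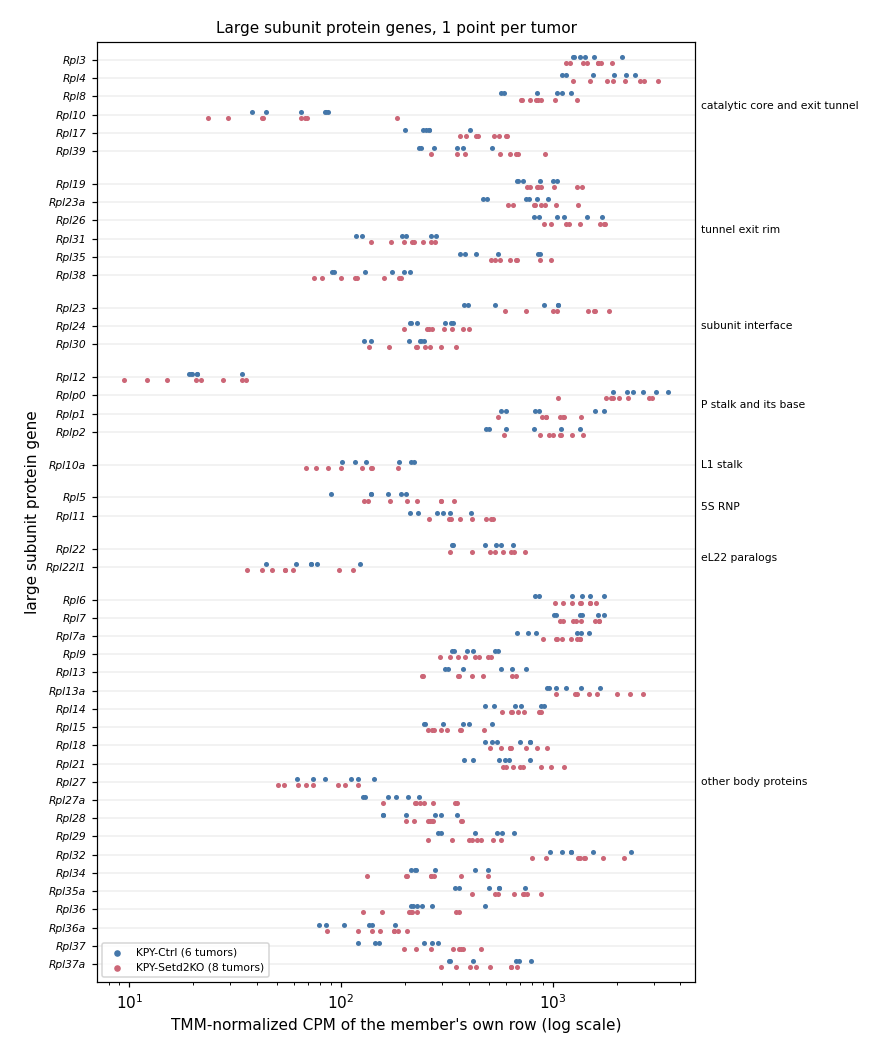
TMM-normalized CPM of each member's own row (log axis), 1 point per tumor, KPY-Ctrl in blue and KPY-Setd2KO in red, with members grouped by their place in the subunit. The genotypes overlap in all 45 members, and levels run from 9.45 CPM for Rpl12 to 3498 CPM for Rplp0.

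The comparison of genotypes asked whether RNA of the large subunit proteins differed between KPY-Setd2KO and KPY-Ctrl tumors. All 45 members passed the expression filter. After adjustment over 16836 genes edgeR called 0 members, and 0% of all genes, at a threshold of 0.05. At an unadjusted p under 0.05, 8 members (17.8%) were higher in KPY-Setd2KO, against 6.93% of all genes, and 0 were lower, against 6.8% of all genes. The count of 8 became 4 without KPY-Ctrl replicate 5 or KPY-Setd2KO replicate 3, 5 without KPY-Ctrl replicate 2 or 4 or KPY-Setd2KO replicate 7 or 8, and 12 without KPY-Ctrl replicate 6. DESeq2 and limma voom also gave 8 members each at that level, and after adjustment DESeq2 called 1 (Rpl17), where it called 2.02% of genes higher, and limma voom 0. The log2 fold changes ran from -0.49 to 0.86 with a median of 0.12, beside a median of 0.03 for all genes tested, and 28 members were positive and 17 negative. Scaled by library size alone, the median of all genes lay at -0.11, 22 members were positive and 23 negative, and at an unadjusted p under 0.05 5 were higher and 1 lower. The share of all genes at that unadjusted level was counted for the full edgeR fit only. It was not counted with 1 tumor left out, by DESeq2 or limma voom, or by library size alone. No member had CPM ranges that did not overlap between the genotypes, against 0.327% of all genes with every KPY-Setd2KO tumor above every KPY-Ctrl tumor. As a share of all counts the 45 rows made up 2.448 to 3.682% in KPY-Ctrl (median 2.617%) and 2.229 to 4.058% in KPY-Setd2KO (median 2.869%), with means of 2.89% ± 0.553 (SD, n = 6) and 2.94% ± 0.621 (SD, n = 8).

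With the counts of the near copies added to each member, the picture of single members changed. Only 2 members (4.44%) then had an unadjusted p under 0.05, both higher in KPY-Setd2KO, against 6.91% of all genes, and 1 of them (Rpl13a) was among the 8 counted from own rows. With 1 tumor left out this count was between 0 and 7, the latter without KPY-Ctrl replicate 6, and with the leukocyte score in the fit it was 6, of which 5 were higher and 1 lower. The share of all genes at that level was not counted in these fits. In the fit of all tumors the member beside Rpl13a was Rpl28, a protein of the subunit body and 1 of the TOP starts shown above, at 758.9 ± 191.2 CPM in KPY-Ctrl and 1019 ± 215 CPM in KPY-Setd2KO with its copies. Its log2 fold change was 0.43 (standard error 0.20, unadjusted p = 0.0493, adjusted p = 0.362, edgeR), so it lay just under the cut. From its own row the value was 0.20 (unadjusted p = 0.369, edgeR). The median log2 fold change moved from 0.12 to 0.10, the extremes from -0.49 and 0.86 to -0.33 and 0.60, and 33 members were positive. The summed share of members and copies was 4.149% (median) in KPY-Ctrl and 4.433% in KPY-Setd2KO, with ranges of 3.734 to 5.704% and 3.426 to 6.123%.

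**Figure D3:**
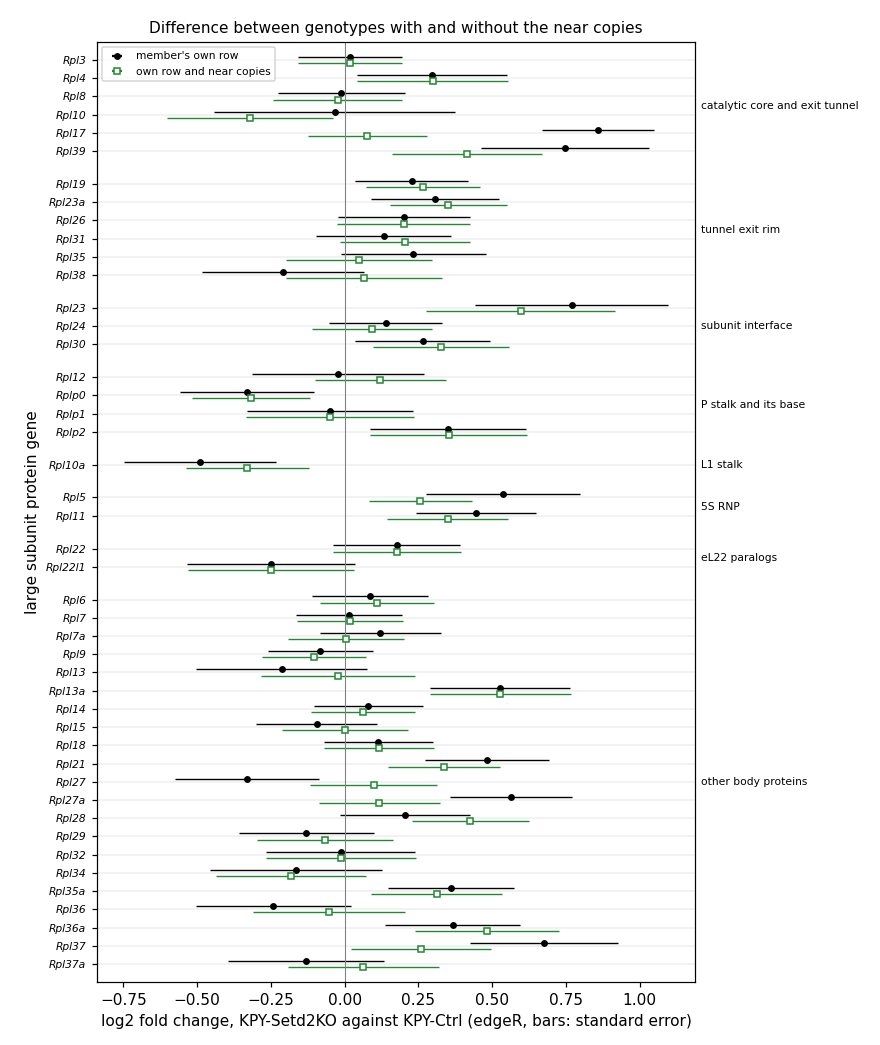
Log2 fold change (KPY-Setd2KO against KPY-Ctrl, edgeR, bars: standard error) of each member from its own row (black) and from its own row with the near copies (green). Rpl17 moves from 0.86 to 0.08 and Rpl27a from 0.56 to 0.12, while Rpl13a stays at 0.53.

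Among the proteins of the catalytic core and exit tunnel (6 members, 2 with an unadjusted p under 0.05), Rpl17 had the largest difference and the smallest p of all members. The protein lines the exit tunnel, and the gene (ENSMUSG00000062328.7) lies on chromosome 18. Its own row had 200.1 to 406.8 CPM (median 255.9) in KPY-Ctrl and 365.7 to 610.2 CPM (median 484.1) in KPY-Setd2KO. All KPY-Ctrl tumors but replicate 6 lay below every KPY-Setd2KO tumor. The means were 270.8 ± 70.3 (SD, n = 6) and 491.1 ± 95.7 CPM (SD, n = 8), a log2 fold change of 0.86 (standard error 0.19) with an adjusted p of 0.116 in edgeR and 0.000809 in DESeq2. Its 47 near copies together went the other way, with means of 915.5 ± 290.4 CPM in KPY-Ctrl and 759.3 ± 185.3 CPM in KPY-Setd2KO. The most abundant, Rpl17-ps3, had 480.3 ± 149.8 and 341.8 ± 163.4 CPM, and Rpl17-ps9 was higher in KPY-Setd2KO (139.6 ± 32.4 against 228.9 ± 71.3 CPM), each with an adjusted p over 0.05 (0.502 and 0.232). Row and copies together had 1186 ± 341 CPM in KPY-Ctrl and 1250 ± 220 CPM in KPY-Setd2KO, and the log2 fold change was 0.08 (standard error 0.20, adjusted p = 0.915, edgeR). The difference in the Rpl17 row was thus not present in the sum of row and copies.

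Rpl39, a small protein further down the same tunnel (chromosome X, 37082520 to 37085402), had 233.3 to 514.9 CPM (median 314.0) in KPY-Ctrl and 265.3 to 914.8 CPM (median 593.6) in KPY-Setd2KO. The highest values were those of KPY-Setd2KO replicates 1, 7 and 8, and the groups overlapped. Its log2 fold change was 0.75 (standard error 0.29, adjusted p = 0.261, edgeR) and 0.41 with the copies. The intronless copy Rpl39-ps, shown above with its single differing base, had 104.4 ± 40.6 CPM in KPY-Ctrl and 39.0 ± 32.7 CPM in KPY-Setd2KO (adjusted p = 0.284). The other 4 members of this group (Rpl3, Rpl4, Rpl8, Rpl10) had log2 fold changes from -0.03 to 0.30. Rpl10, whose own row is a small part of its counts, had 38.1 to 86.5 CPM (median 74.2) in KPY-Ctrl and 23.6 to 183.8 CPM (median 54.0) in KPY-Setd2KO, with the single highest value in KPY-Setd2KO replicate 1. Its log2 fold change of -0.03 was -0.46 without that tumor. With its copies its log2 fold change was -0.32 (standard error 0.28).

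At the subunit interface (3 members, 1 with an unadjusted p under 0.05), Rpl23 stood out. This protein holds the face that meets the small subunit and is the site where the anti-association factor eIF6 binds (chromosome 11, 97777527 to 97782437). Rpl23 had 382.1 to 1059 CPM (median 719.5) in KPY-Ctrl and 594.6 to 1840 CPM (median 1257) in KPY-Setd2KO. In each genotype the tumors with a leukocyte score over 8 were the high ones, from 907.4 to 1059 CPM in KPY-Ctrl and from 1466 to 1840 CPM in KPY-Setd2KO, and the others lay between 382.1 and 531.6 CPM and between 594.6 and 1048 CPM. The log2 fold change was 0.77 (standard error 0.33, adjusted p = 0.314, edgeR) and 0.60 with the copies. With the leukocyte score as a covariate Rpl23 (0.73, adjusted p = 0.0144) and Rpl17 (0.86, adjusted p = 0.0174) passed the threshold, 4.44% of the members, where 3.49% of all genes were called higher. With copies and covariate together 1 member passed, Rpl23 (0.56, adjusted p = 0.029), and the share of all genes called in that fit was not counted. The part of leukocyte RNA in the Rpl23 level was not tested further. Rpl24 (0.14) and Rpl30 (0.26) had smaller log2 fold changes.

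Rpl4, which forms the narrow part of the exit tunnel together with Rpl17, moved with the leukocyte score in the same way but with less difference between genotypes. It had 1953 to 2438 CPM in the 3 KPY-Ctrl tumors with a score over 8 and 1110 to 1555 CPM in the other 3, against 2193 to 3153 and 1242 to 1926 CPM in KPY-Setd2KO. Its log2 fold change was 0.30 (standard error 0.26, adjusted p = 0.677, edgeR), and it has almost no copies. Because the tumors fall into separate clusters by score, no correlation over all tumors is given.

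**Figure D4:**
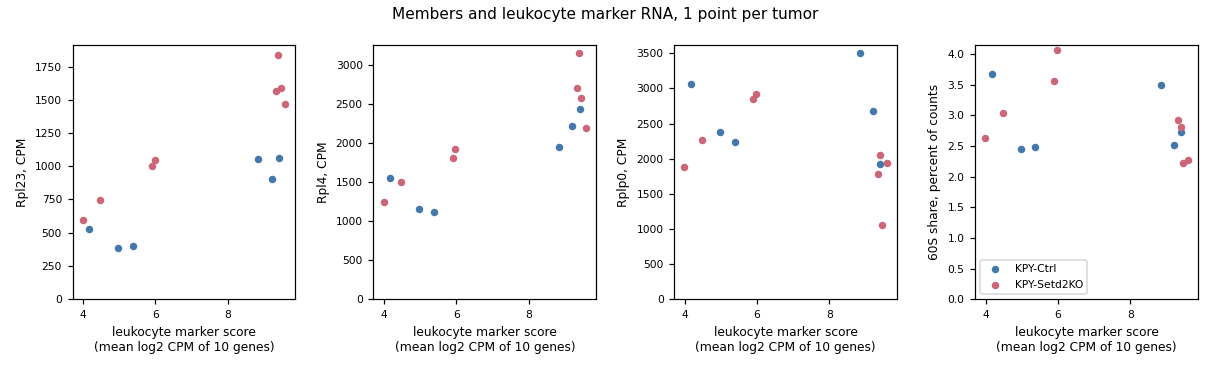
Rpl23, Rpl4 and Rplp0 (CPM of the own row) and the share of the 45 rows in all counts (percent), each against the leukocyte marker score (mean log2 CPM of 10 genes), 1 point per tumor, KPY-Ctrl in blue and KPY-Setd2KO in red. Rpl23 and Rpl4 are highest in the tumors at the right, Rplp0 is lowest in KPY-Setd2KO replicate 4, and the 60S share runs from 2.229 to 4.058%.

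The 21 remaining proteins of the subunit body included 4 with an unadjusted p under 0.05, Rpl27a, Rpl37, Rpl21 and Rpl13a. Rpl27a (chromosome 7, 109519147 to 109522367), had 127.3 to 232.8 CPM (median 174.4) in KPY-Ctrl and 157.8 to 354.1 CPM (median 241.4) in KPY-Setd2KO. The groups overlapped, and KPY-Setd2KO replicates 7 and 8 were the highest. Its log2 fold change of 0.56 (standard error 0.21, adjusted p = 0.251, edgeR) became 0.12 with its copies, since Gm7536, which has the same sequence over 444 bases, had 752.7 ± 200.2 and 746.1 ± 161.5 CPM. Rpl37, a zinc-binding protein (chromosome 15, 5116645 to 5119140), had 120.4 to 286.8 CPM (median 198.3) in KPY-Ctrl and 199.0 to 456.9 CPM (median 349.0) in KPY-Setd2KO, a log2 fold change of 0.68 (standard error 0.25, adjusted p = 0.251) that became 0.26 with its copies. KPY-Ctrl replicates 2, 4 and 5 lay below every KPY-Setd2KO tumor. Rpl21 (chromosome 5, 146832890 to 146837032) had 379.7 to 778.9 CPM (median 575.2) and 581.1 to 1135 CPM (median 712.8), a log2 fold change of 0.48 (standard error 0.21, adjusted p = 0.33) and of 0.34 with its copies.

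Rpl13a differed from these in that its row held 99.9% of its counts. The protein is known both as a part of the subunit and, when released, as a regulator of translation in inflammation (chromosome 7, 45125558 to 45128761). Rpl13a had 941.7 to 1672 CPM (median 1097) in KPY-Ctrl and 1037 to 2669 CPM (median 1549) in KPY-Setd2KO. The 3 highest values were those of KPY-Setd2KO replicates 6, 7 and 8, all with a leukocyte score under 6, and the other KPY-Setd2KO tumors lay within the KPY-Ctrl range. The log2 fold change was 0.53 (standard error 0.24, adjusted p = 0.345, edgeR) with and without copies. Of the other 17 body proteins none had an unadjusted p under 0.05, and Rpl27 had the most negative log2 fold change (-0.33), which became 0.10 with its copies.

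The division of counts between the row and its copies separated the genotypes in 3 of the 29 members compared. The share of counts in the own row does not depend on library scaling, and it was compared, after the counts had been seen, for all genes whose copies held at least 10% of the counts and 5 CPM, 29 members and 146 other genes. Rpl37 had 35.7 to 50.3% (median 45.4%) of its counts in its own row in KPY-Ctrl and 53.4 to 65.3% (median 58.0%) in KPY-Setd2KO. Rpl27a had 17.3 to 20.2% (median 19.2%) and 21.5 to 28.4% (median 25.2%). Rpl23 had 64.6 to 70.0% (median 67.0%) and at least 72.8% (median 75.4%). In each of the 3, every KPY-Setd2KO tumor lay above every KPY-Ctrl tumor, which was so for 10.3% of the 29 members and 5.14% of the 175 genes compared. The opposite order was found in 0 members and in 2.29% of the 175 genes. Rpl35 and Rpl17 came close. Rpl35 had 48.4 to 55.5% in KPY-Ctrl and 55.3 to 62.7% in KPY-Setd2KO. Rpl17 had 18.4 to 31.0% in KPY-Ctrl and 25.1 to 44.9% in KPY-Setd2KO, where only KPY-Setd2KO replicate 1 lay within the KPY-Ctrl range. There was no common direction, since the mean share was higher in KPY-Setd2KO for 13 of the 29 members and for 62 of the 146 other genes. Rpl7a was outside this comparison because its own row held 95.2% of its counts. Its share was 78.8 to 96.5% in KPY-Ctrl and 97.6 to 99.1% in KPY-Setd2KO, also without overlap. How often this held among all genes outside the comparison was not counted.

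**Figure D5:**
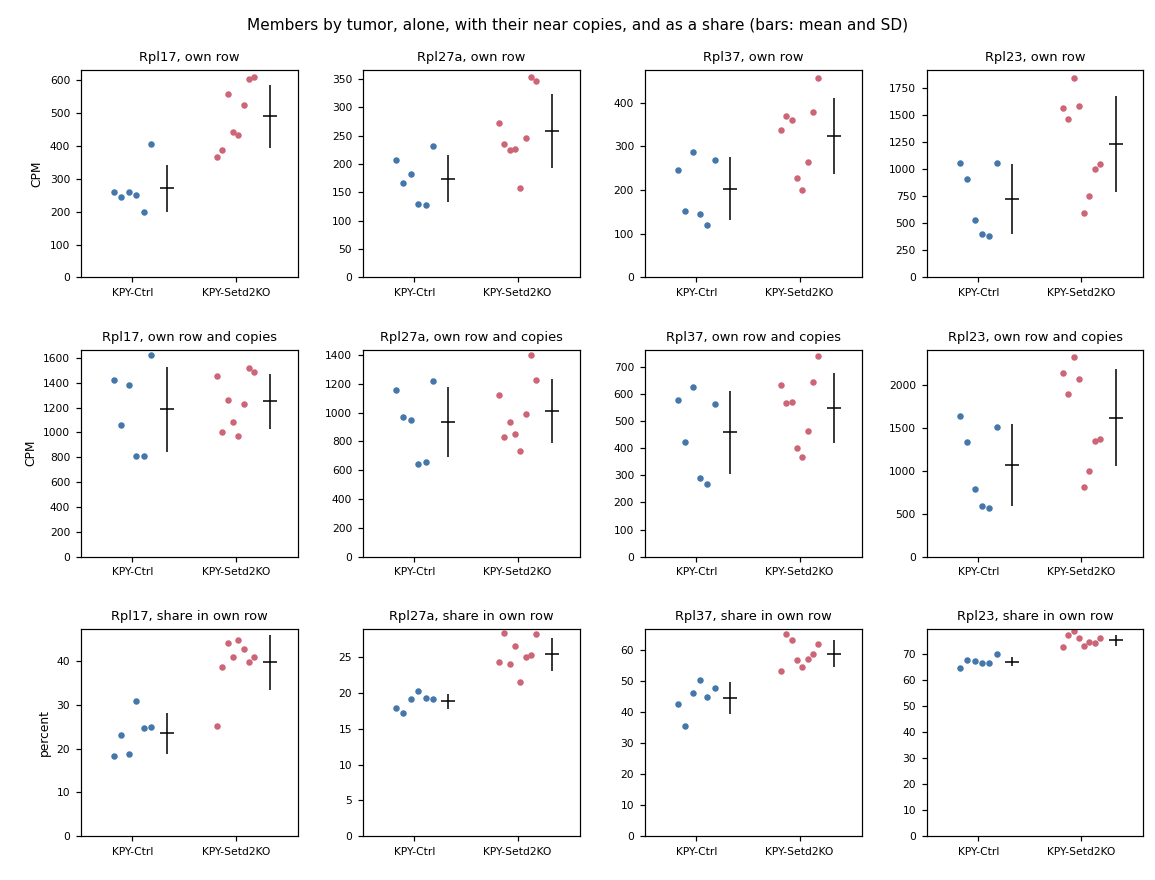
CPM of the own row (top), CPM with the near copies (middle) and share of counts in the own row in percent (bottom) for Rpl17, Rpl27a, Rpl37 and Rpl23, 1 point per tumor, with mean and SD. The shares of Rpl27a, Rpl37 and Rpl23 do not overlap between the genotypes, while the summed values in the middle row do.

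The 5S particle, in which Rpl5 and Rpl11 bind the 5S RNA, is known as the part of the subunit that restrains Mdm2 and so stabilizes p53, a gene deleted in all these tumors. Rpl11 (chromosome 4, 136028265 to 136053428) had 211.9 to 410.1 CPM (median 294.5) in KPY-Ctrl and 261.2 to 519.3 CPM (median 389.2) in KPY-Setd2KO. The log2 fold change was 0.45 (standard error 0.20, adjusted p = 0.35, edgeR), and 0.35 with the copies. Rpl5 (chromosome 5, 107900502 to 107909005) had 89.7 to 203.1 CPM (median 152.7) in KPY-Ctrl and 127.9 to 341.3 CPM (median 216.7) in KPY-Setd2KO in its own row. With Gm15500 and its other copies it had 2340 ± 491 and 2793 ± 418 CPM, and its log2 fold change went from 0.54 (standard error 0.26, adjusted p = 0.387) to 0.26. In both genes the ranges of the genotypes overlapped, and 5 KPY-Setd2KO tumors for Rpl5 and 4 for Rpl11 lay above the highest KPY-Ctrl tumor.

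In the P stalk, the arm that recruits the elongation factors, 0 of 4 members had an unadjusted p under 0.05. Rplp0, its anchor on the ribosomal RNA (chromosome 5, 115559467 to 115563727), was the most abundant member by CPM of the own row, with 1920 to 3498 CPM (median 2530) in KPY-Ctrl and 1053 to 2925 CPM (median 1990) in KPY-Setd2KO. With copies Rpl5 had a higher mean (2599 against 2394 CPM). Rplp0 had the smallest p of the stalk, with a log2 fold change of -0.33 (standard error 0.23, adjusted p = 0.574, edgeR). Rplp1 and Rplp2, which pair on that anchor, had log2 fold changes of -0.05 and 0.35, and Rpl12 had -0.02 in its own row and 0.12 with its copies. The ranges of all 4 overlapped between the genotypes. Rpl10a, the protein of the L1 stalk that guides spent tRNA out, had the most negative log2 fold change of all members (-0.49, standard error 0.26, adjusted p = 0.428, edgeR). Its own row had 100.8 to 221.7 CPM (median 159.6) in KPY-Ctrl and 68.7 to 186.3 CPM (median 113.0) in KPY-Setd2KO, which overlapped. With Rpl10a-ps1, a copy without a differing base, the log2 fold change was -0.33.

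At the rim of the tunnel exit, where the new chain meets targeting factors, none of 6 members had an unadjusted p under 0.05. Rpl23a, the docking site of the signal recognition particle, had the smallest p of the rim, at 469.7 to 951.3 CPM (median 760.1) in KPY-Ctrl and 617.7 to 1308 CPM (median 851.0) in KPY-Setd2KO (log2 fold change 0.31, standard error 0.22, adjusted p = 0.588, edgeR). Of its 34 copies Gm10132 differed more than the member, with 21.6 ± 7.68 CPM in KPY-Ctrl and 97.8 ± 71.4 CPM in KPY-Setd2KO (log2 fold change 2.18, adjusted p = 0.137 in edgeR and 0.00606 in DESeq2). Its ranges overlapped (13.9 to 35.3 and 9.61 to 189.1 CPM), and the most abundant copy, Gm3362, had a log2 fold change of -0.04. Of 188 copies of all members tested in edgeR, 13 were higher and 5 lower at an unadjusted p under 0.05. Over all genes these shares were 6.93% and 6.8%, and 0 copies passed after adjustment. The other rim members had log2 fold changes from -0.21 (Rpl38) to 0.23. Rpl26, the most abundant of them per kilobase, had 818.1 to 1716 and 906.8 to 1766 CPM. Rpl38, with the TOP start shown above, became 0.07 with its copies.

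Rpl22 and Rpl22l1 are paralogs that occupy the same place on the subunit, and Rpl22 protein is known to repress Rpl22l1. Both are nearly free of copies. Rpl22 had 333.9 to 648.5 CPM (median 510.1) in KPY-Ctrl and 326.3 to 740.2 CPM (median 556.7) in KPY-Setd2KO, a log2 fold change of 0.18 (standard error 0.22, adjusted p = 0.797, edgeR). Rpl22l1 had 44.5 to 123.1 CPM (median 72.4) and 36.1 to 114.2 CPM (median 54.6), a log2 fold change of -0.25 (standard error 0.29, adjusted p = 0.779). With 1 tumor left out the value for Rpl22l1 ran from -0.43 (without KPY-Setd2KO replicate 1) to -0.063 (without KPY-Ctrl replicate 3), and that for Rpl22 was lowest (0.086) with KPY-Ctrl replicate 5 omitted and highest (0.27) with KPY-Ctrl replicate 6 omitted. The log2 ratio of Rpl22l1 to Rpl22 was -2.71 ± 0.62 (SD, n = 6) in KPY-Ctrl and -3.18 ± 0.57 (SD, n = 8) in KPY-Setd2KO, a difference of -0.47. Relabeling the tumors in all possible ways gave a difference at least this large with p = 0.167 (exact permutation test, two-sided). The ranges of the ratio overlapped.

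Members varied together within each genotype. After subtraction of the genotype means, the median Pearson r between members over the 14 tumors was 0.69 for the own rows (990 pairs, 725 above 0.5 and 25 below 0). With copies it was 0.77, with 16 pairs below 0. All these points share libraries and scaling, so the values are a description only. In the own rows Rpl10 (median r 0.33 with the others), Rpl12 (0.33) and Rpl4 (0.43) followed the others least and Rpl26 (0.83) and Rpl37a (0.83) most. With copies Rpl10 came to 0.57 and Rpl12 to 0.64, Rpl4 stayed at 0.47, and Rpl17 went from 0.49 to 0.87. The within-genotype SD of log2 CPM ran from 0.27 (Rpl3) to 0.77 (Rpl10) with a median of 0.43, beside 0.67 for all genes tested.

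Other genes of the same machinery were read from their own rows alone, and their counts at an unadjusted p under 0.05 stand beside 6.93% higher and 6.8% lower over all genes. Of 7 tested among the remaining 60S proteins and paralogs, none was at that level, the log2 fold changes ran from -0.33 to 1.11, and the smallest p was that of Rpl36al, a paralog of Rpl36a (127.0 ± 26.1 against 156.9 ± 39.3 CPM, log2 fold change 0.30, adjusted p = 0.526, edgeR). Of 34 small subunit proteins 2 were higher and 0 lower (5.88% in all), with a median log2 fold change of 0.06 and a range from -0.65 to 0.85. Rps23, a protein of the decoding center, had the smallest p there (221.7 ± 70.8 against 381.9 ± 111.4 CPM, 0.79, adjusted p = 0.198). Of 35 factors for 60S assembly and export, 6 were higher and 2 lower (22.9% in all), with a median of 0.08 and -0.74 as the lowest value. Mdn1, the ATPase that pulls assembly factors off the nascent subunit, was 1 of those with the lower value in KPY-Setd2KO (31.1 ± 9.18 against 18.6 ± 5.30 CPM, -0.74, adjusted p = 0.162). Of 19 other genes with TOP mRNAs, 3 were higher and 0 lower (15.8% in all), with a median of 0.20 and the smallest p for Hnrnpa1, an RNA-binding protein of splicing (184.6 ± 44.5 against 271.2 ± 56.3 CPM, 0.55, adjusted p = 0.219). None of these lists held a gene with an adjusted p under 0.05 in edgeR or in DESeq2. With the leukocyte score in the fit Rps23 (adjusted p = 0.031), Mdn1 (0.0272) and Hnrnpa1 (0.0178) passed, among 1, 3 and 2 genes of their lists. In that fit 3.49% of all genes were called higher, and the share called lower was not counted.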

How the data were processed

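RNA was measured in 6 KPY-Ctrl and 8 KPY-Setd2KO tumors by single-end 75-base RNA-seq. The deposited values are estimated counts for each Ensembl gene, given as whole numbers and not normalized, which the authors made with Salmon 0.8.2 on GRCm38.p5 per the labels and the study's methods. Salmon divides reads that match several transcripts by an estimate, so the division between a gene and an identical copy rests on that estimate. Of 52550 rows, 52403 matched a GENCODE M21 symbol, and 3 genes (0 members) had very large values written with 3 digits only.

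Counts were normalized by TMM and tested with edgeR 4.0.16 (R 4.3.3, filterByExpr, robust quasi-likelihood test on genotype, Benjamini-Hochberg adjustment over 16836 genes). DESeq2 1.42.0 and limma 3.58.1 were alternatives. CPM used TMM library sizes, and log2 CPM a prior count of 2. Levels per kilobase used the annotated coding transcript of the member, also where copies were added. Near copies were found with BLAST 2.17.0. On simulated counts for 16253 genes, 200 of them changed by 1.5 on the log2 scale, edgeR recovered 74 with 2 false calls, so changes of that size can be missed over all genes. The members had smaller log2 fold changes (at most 0.86) and a lower median SD (0.43 beside 0.67 for all genes). The simulation thus does not give the recovery for the members. Members are abundant, so counting error is small. Variation among tumors can limit the comparisons, as can the estimated division of reads where near copies hold many of the counts. The part of each was not tested. Several tumors came from the same mouse, so the p-values measure the spread between these tumors and not between mice. They may be too small if tumors of the same mouse are alike.

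The members, roles and other gene lists were chosen with earlier results of these data known, and the near copies, the own-row shares and their alternatives were added after seeing the data. Named were the members with an unadjusted p under 0.05, those with the 3 highest and 3 lowest levels per kilobase or the largest log2 fold changes, the smallest p of each role and list, Rpl22, Rpl22l1, Rpl5, Rpl11, Rpl10, Rplp0 and Setd2. Rpl4, Rpl7a, Rpl28, Rpl27, Rpl35, Rpl38, Rpl24, Rpl30 and the copies were named after their values were seen. Of the 45 members, 11 had no RefSeq promoter. Some alleles, markers and sequences are not reported here.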

Additional observations from a re-analysis of the deposited data

Results flagged for a closer look

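Of 96 groups of tumors checked (45 members, Setd2, the 60S share and the ratio of Rpl22l1 to Rpl22, in each genotype), 2 had a tumor far from the others of its genotype, where chance alone marks about 1 in 20. Both were KPY-Ctrl replicate 3. Its Rpl12 level was 5.10 log2 CPM, beside 4.26 to 4.39 in the other 5 KPY-Ctrl tumors. Its Rpl36 level was 8.90 log2 CPM, beside 7.75 to 8.07 in the others. The same tumor had the highest Rpl32 (2337 CPM) and Rpl3 (2119 CPM) values and the highest 60S share (3.682%) of the KPY-Ctrl tumors, with a leukocyte score of 4.17, the lowest of that genotype.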

How the results depend on the processing

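The median log2 fold change stayed positive with DESeq2, limma voom, RLE size factors, either filter, the leukocyte score and named pseudogenes (0.07 to 0.14), and was -0.0027 with library sizes alone (all genes -0.11) and -0.013 with copies and replicate block. With 1 tumor left out it ran from 0.03 (KPY-Ctrl replicate 5) to 0.20 (KPY-Ctrl replicate 6), and with copies from 0.0089 (KPY-Ctrl replicate 4) to 0.19 (KPY-Ctrl replicate 6). Members past an adjusted p of 0.05 went from 0 to 1 with DESeq2, 2 with the leukocyte score and 1 with copies and score. Members with an unadjusted p under 0.05 went from 8 to 2 with copies, to 6 (5 higher, 1 lower) with copies and the leukocyte score, and to 2, both lower in KPY-Setd2KO, with copies and replicate block. With 1 tumor left out the count for own rows was 4 (KPY-Ctrl replicate 5 or KPY-Setd2KO replicate 3), 5 (KPY-Ctrl replicate 2 or 4, KPY-Setd2KO replicate 7 or 8) or up to 12 (KPY-Ctrl replicate 6). With copies it was 0 (KPY-Ctrl replicate 2, 4 or 5, KPY-Setd2KO replicate 3, 6, 7 or 8) or 1 (KPY-Ctrl replicate 1, KPY-Setd2KO replicate 4). It stayed at 2 without KPY-Ctrl replicate 3 or KPY-Setd2KO replicate 1 or 2. It rose to 6 without KPY-Setd2KO replicate 5 and to 7 without KPY-Ctrl replicate 6. Setd2 passed the threshold with the leukocyte score (-0.83, adjusted p = 0.024) and with copies and score (-0.82). The own-row log2 fold change of Rpl10 reversed without KPY-Ctrl replicate 1, 4 or 6 or KPY-Setd2KO replicate 4, 5, 6 or 7 (range -0.46 to 0.091). That of Rpl17 with copies reversed without KPY-Ctrl replicate 4 (-0.012) or 5 (-0.013), and that of Rpl27a with copies and replicate block (-0.0038). The differences in own-row share stayed within 7.82 to 8.90 percentage points for Rpl23, 6.16 to 7.15 for Rpl27a and 12.6 to 15.6 for Rpl37 without each tumor in turn. The labels do not say whether equal replicate numbers pair the tumors. The correlations of their deviations ran from -0.66 to 0.66 and were below 0 for 3 of the 6 numbers. They were above 0 for numbers 1, 2 and 5, where both tumors had a high or both a low leukocyte score. They were below 0 for numbers 3, 4 and 6, where 1 tumor had a high and 1 a low score. Shared handling by number could not be told apart from that score. With the replicate block 8 members had an unadjusted p under 0.05, 4 higher and 4 lower, and the median was 0.05, the ratio of Rpl22l1 to Rpl22 differed by -0.50 (exact permutation test over 6 pairs, p = 0.438), and Setd2 by -0.67. The share of all genes at an unadjusted p under 0.05 was counted only for the main fit and the fit with copies. All other counts of members at that level stand without it and describe the members alone. The cause of the changes between settings was not tested.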
